A study of Mus musculus with 6 samples.

Results

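The genes described here are the mouse zinc-finger genes whose symbols run from Zfp700 to Zfp999, with or without a trailing letter. They were chosen by symbol alone, and 135 of the 21006 gene symbols in the counts table carry such a name. Most belong to the C2H2 family, in which each finger is a short loop of protein folded around a zinc ion by a pair of cysteines and a pair of histidines, and an array of fingers in a row reads a stretch of DNA. Many also begin with a KRAB domain, which binds the corepressor Trim28. Trim28 in turn brings the H3K9 methyltransferase Setdb1, HP1 proteins and the NuRD remodelling complex to the bound site, so KRAB zinc-finger proteins are best known for silencing endogenous retroviruses and other repeats. Many of the genes, though not all, arose by tandem duplication in the rodent lineage and sit side by side in clusters of near copies. Such clusters are themselves chromatin rich in H3K9 methylation. Ehmt1 (GLP) and Ehmt2 (G9a), the targeted genes of the study, encode paired enzymes that place mono- and dimethyl marks on H3K9.

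RNA was sequenced from branchial arches at E11.5, the paired swellings from which the jaws and throat form. The 3 DKO (double knockout) libraries had floxed alleles of both enzymes, Ehmt1f/f and Ehmt2f/f, and the 3 control libraries were Ehmt1+/+ and Ehmt2+/+. Both groups carried Rosa26 TdTomato/+ and Wnt1-cre, a Cre recombinase driven in neural crest and dorsal neural tube, so recombination and the red reporter are limited to cells with that Cre and their descendants. Papain-dissociated cells were sorted on TdTomato, and the labels number the libraries as biological replicates without saying whether each holds 1 embryo or several. Floxed alleles recombined by Cre leave the cells that escaped it unchanged, and the labels give no measure of recombination.

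Both targeted genes were below all controls in each DKO library. Ehmt1 was at 144, 133 and 168 CPM (library counts scaled by TMM to a common total) in DKO replicates 1 to 3 and at 250.03, 260 and 268 CPM in control replicates 1 to 3, a log2 fold change of -0.81 ± 0.10 (SE, edgeR quasi-likelihood test, with adjusted p = 0.00476). Ehmt2 was at 124, 119 and 140 CPM against 347, 360 and 358 CPM, a log2 fold change of -1.47 ± 0.08 (adjusted p = 0.000208). DKO replicate 3 had the most of both transcripts among the DKO libraries, and it also lay nearest to the controls on the first principal component, which held 46.6% of the variance (a score of -12.3, where DKO replicates 1 and 2 scored -31.8 and -37.0 and the controls 19.1 to 31.2). Total counts were 23414466 to 44538260 per library. All 9 markers of arch neural crest were expressed, with summed levels of 1464 to 1890 CPM in DKO and 1718 to 2073 CPM in control libraries. The 4 endothelial markers summed to 23.3 to 25.6 CPM in DKO and 10.8 to 14.4 CPM in control libraries. Among them Tie1 was higher by edgeR at an adjusted p below 0.05. The 4 neuronal markers summed to 721 to 747 and 730 to 892 CPM, which overlap. The 3 erythroid markers also overlapped, at 4.80 to 64.5 CPM in DKO and 23.8 to 42.9 CPM in control libraries. Whether the levels of other cell types play a part in the fold changes below was not tested. In bulk RNA, fewer cells of a type and less RNA per cell cannot be told apart.

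Of the 135 genes, 123 had enough counts to be tested, and 11 of these were called at an adjusted p below 0.05, which is 8.94% of them against 3.01% of all 14555 tested genes. The calls ran mostly downward. Lower in DKO were 10 genes, 8.13% of those tested against 0.818% of all tested genes, and 1 gene was higher, 0.813% against 2.19%. The 10 lower genes were Zfp935, Zfp781, Zfp934, Zfp738, Zfp976, Zfp975, Zfp951, Zfp977, Zfp946 and Zfp729a, with control levels 1.44 to 3.14 times those of DKO, and the higher gene was Zfp941. With scaling by library size alone, 8 genes were lower and 2 higher, where 80 and 416 of all 14555 tested genes were. Summed over the 10 lower genes, the level was 68.0, 62.2 and 84.1 CPM in DKO replicates 1 to 3 and 144, 145 and 126 CPM in control replicates 1 to 3. These sums describe genes picked by the same comparison and carry no test.

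Over all 123 tested genes the shift was small. Log2 fold changes were below 0 in 76 of 123 tested genes, 61.8% against 51.2% of all tested genes, and their median was -0.06 against -0.01 over all tested genes. With scaling by library size alone, the median was 0.02 against 0.07 and 56 of the 123 were below 0, so the sign of the median depends on the scaling. DKO and control libraries did not overlap in 27 genes that were lower (22.0%, against 12.7% of all tested genes) and in 24 that were higher (19.5%, against 14.5%), or 41.5% against 27.2% in either direction. The 135 genes together took 2661, 2608 and 2852 CPM in DKO replicates 1 to 3 and 2930, 2775 and 2757 CPM in control replicates 1 to 3. The groups overlapped, at 2707 ± 129 and 2821 ± 95.0 CPM (SD, n = 3 each), and with scaling by library size alone the order of the means turned, at 2783 and 2746 CPM.

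**Figure D1:**
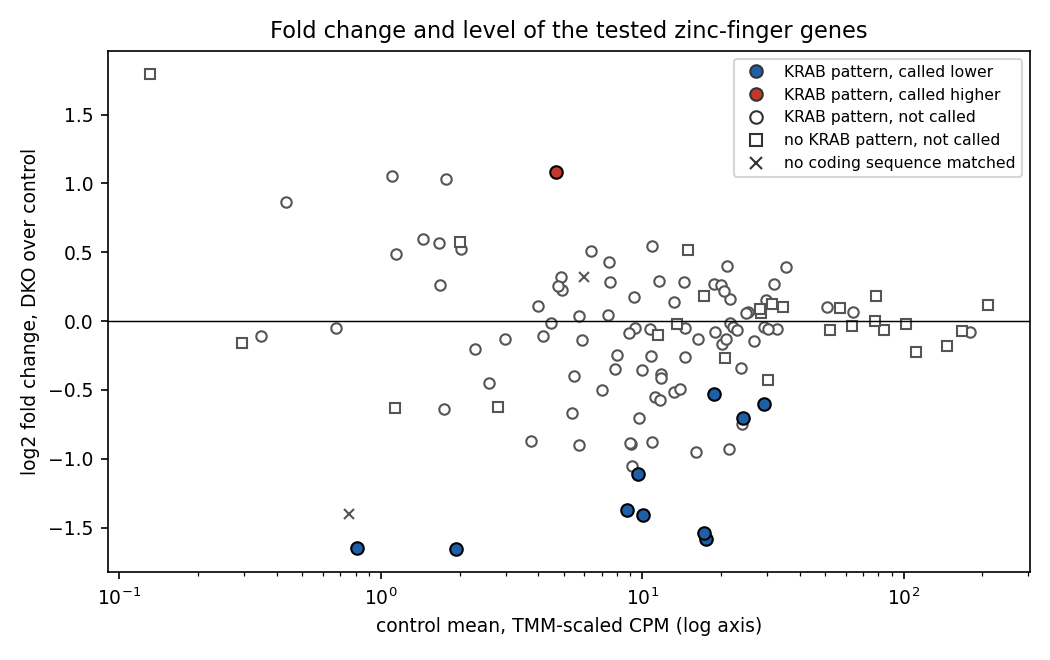
Log2 fold change (DKO over control) of the 123 tested zinc-finger genes against their mean control level in CPM on a log axis, with called genes filled and genes with and without a KRAB pattern as circles and squares. The genes called lower lie at control levels from 0.814 to 29.2 CPM.

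On chromosome 7, 3 genes that lie next to each other fell together. They are shown with their promoters because they are neighbours, are related in sequence and were all called lower. Each window is the RefSeq promoter on GRCm38.p6 from 250 bases before to 50 bases after a transcript start that RefSeq gives for the gene, read on the minus strand, for Zfp975 (chr7:42692669-42692968), Zfp976 (chr7:42642555-42642854) and Zfp977 (chr7:42592496-42592795). That start lies inside the gene's full range, not at its edge, in Zfp975 and Zfp976. Capitals mark CpG dinucleotides, the sites of DNA methylation in mammals.
Zfp975 promoter: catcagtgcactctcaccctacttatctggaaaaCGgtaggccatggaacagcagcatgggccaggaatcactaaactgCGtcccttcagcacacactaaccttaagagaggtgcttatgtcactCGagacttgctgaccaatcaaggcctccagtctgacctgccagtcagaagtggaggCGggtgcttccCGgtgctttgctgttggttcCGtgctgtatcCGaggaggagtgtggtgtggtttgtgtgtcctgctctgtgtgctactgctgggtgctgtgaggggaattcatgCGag
Zfp976 promoter: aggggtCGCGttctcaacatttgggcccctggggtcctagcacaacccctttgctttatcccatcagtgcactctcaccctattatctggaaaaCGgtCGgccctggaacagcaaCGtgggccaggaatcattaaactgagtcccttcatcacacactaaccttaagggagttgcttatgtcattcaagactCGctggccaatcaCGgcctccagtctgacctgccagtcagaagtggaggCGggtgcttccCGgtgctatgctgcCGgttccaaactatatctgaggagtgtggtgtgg
Zfp977 promoter: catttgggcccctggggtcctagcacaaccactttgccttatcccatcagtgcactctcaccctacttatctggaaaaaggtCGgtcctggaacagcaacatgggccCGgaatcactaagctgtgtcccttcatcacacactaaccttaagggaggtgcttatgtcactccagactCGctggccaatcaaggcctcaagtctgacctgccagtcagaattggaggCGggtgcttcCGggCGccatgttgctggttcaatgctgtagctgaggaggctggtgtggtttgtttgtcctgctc

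In a global alignment, the promoters of Zfp976 and Zfp977 were 80.8% identical, those of Zfp975 and Zfp977 66.6%, and those of Zfp975 and Zfp976 60.1%. The 300-base windows start at different points of the sequence they share, and unmatched ends count as positions. Matches were 256 of 317, 229 of 344 and 217 of 361 positions. The order of these shares therefore does not rank how far the promoters differ. Among the promoters printed in this report, those from different loci, counted in the same way, shared 47.5 to 53.0% over 11 pairs. Promoters of the other called genes and of uncalled genes were not aligned. The 3 windows hold 8, 10 and 6 CpGs, where the median was 9.5 over the 118 of the 135 genes with a RefSeq promoter and 14 over the 16833 table genes with one.

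Zfp977 (chr7:42579397-42592545, a C2H2 gene with 11 finger patterns) had the lowest control level of the trio per length, 0.619 CPM per kb of coding sequence against 4.57 for Zfp976 and 6.12 for Zfp975. Its level was 0.243, 0.251 and 0.268 CPM in DKO replicates 1 to 3 and 0.783, 1.08 and 0.581 CPM in control replicates 1 to 3, from a total of 108 counts over the 6 libraries. The log2 fold change was -1.65 with an SE of 0.34 (edgeR, adjusted p = 0.0433), and the call was narrowly lost with DESeq2 (adjusted p = 0.0502) and limma-voom (0.0514). Zfp976 (chr7:42609514-42644267, 18 finger patterns) lies next to it. It stood at 2.61, 2.79 and 4.67 CPM in DKO and at 9.46, 7.94 and 8.75 CPM in control libraries. The fold change of Zfp976 was -1.38 ± 0.24 on the log2 scale (edgeR, adjusted p = 0.0240). The third gene, Zfp975 (chr7:42660105-42692810, 14 finger patterns), had levels of 3.75, 3.65 and 6.01 CPM in DKO and 9.998, 9.56 and 9.37 CPM in control libraries, a log2 fold change of -1.11 ± 0.21 (edgeR, adjusted p = 0.0338). In all 3 genes the DKO and control libraries did not overlap and DKO replicate 3 was the highest DKO library. The 3 genes share sequence with other genes: of the 50-base words of their annotated transcripts, 8.47% in Zfp977, 20.4% in Zfp976 and 30.4% in Zfp975 recur in a gene elsewhere, so some reads could have been split or dropped among copies. The next gene of the counts table before the trio, Zfp141 (chr7:42473386-42505778), also a zinc-finger gene but numbered below 700, was lower as well. Its level was 10.3, 10.4 and 16.2 CPM in DKO and 29.5, 22.1 and 26.3 CPM in control libraries, a log2 fold change of -1.08 ± 0.20 (edgeR, adjusted p = 0.0299).

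The fall did not extend over the rest of that cluster. Zfp788, the first gene of the cluster, was at 21.1, 19.01 and 24.9 CPM in DKO and 25.1, 19.9 and 22.0 CPM in control libraries, with a log2 fold change of -0.05 ± 0.13 (edgeR, adjusted p = 0.884). On the other side, Zfp715, Zfp719 and Zfp819 had log2 fold changes of 0.16 ± 0.10, 0.40 ± 0.16 and 1.05 ± 0.27, none of them called by edgeR (adjusted p = 0.366, 0.205 and 0.0813), while DESeq2 called Zfp819 higher (adjusted p = 0.0446). Zfp819, whose protein binds Trim28 in mouse cells, was at 2.69, 1.74 and 2.48 CPM in DKO and 1.01, 0.942 and 1.37 CPM in control libraries, so the groups did not overlap. Zfp936, between these genes, had 0, 9 and 7 counts in DKO and 8, 4 and 12 counts in control libraries and was not tested. Vomeronasal receptor genes of the Vmn2r family that lie among the zinc-finger genes there had means of 0.0299 CPM or less in both groups.

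**Figure D2:**
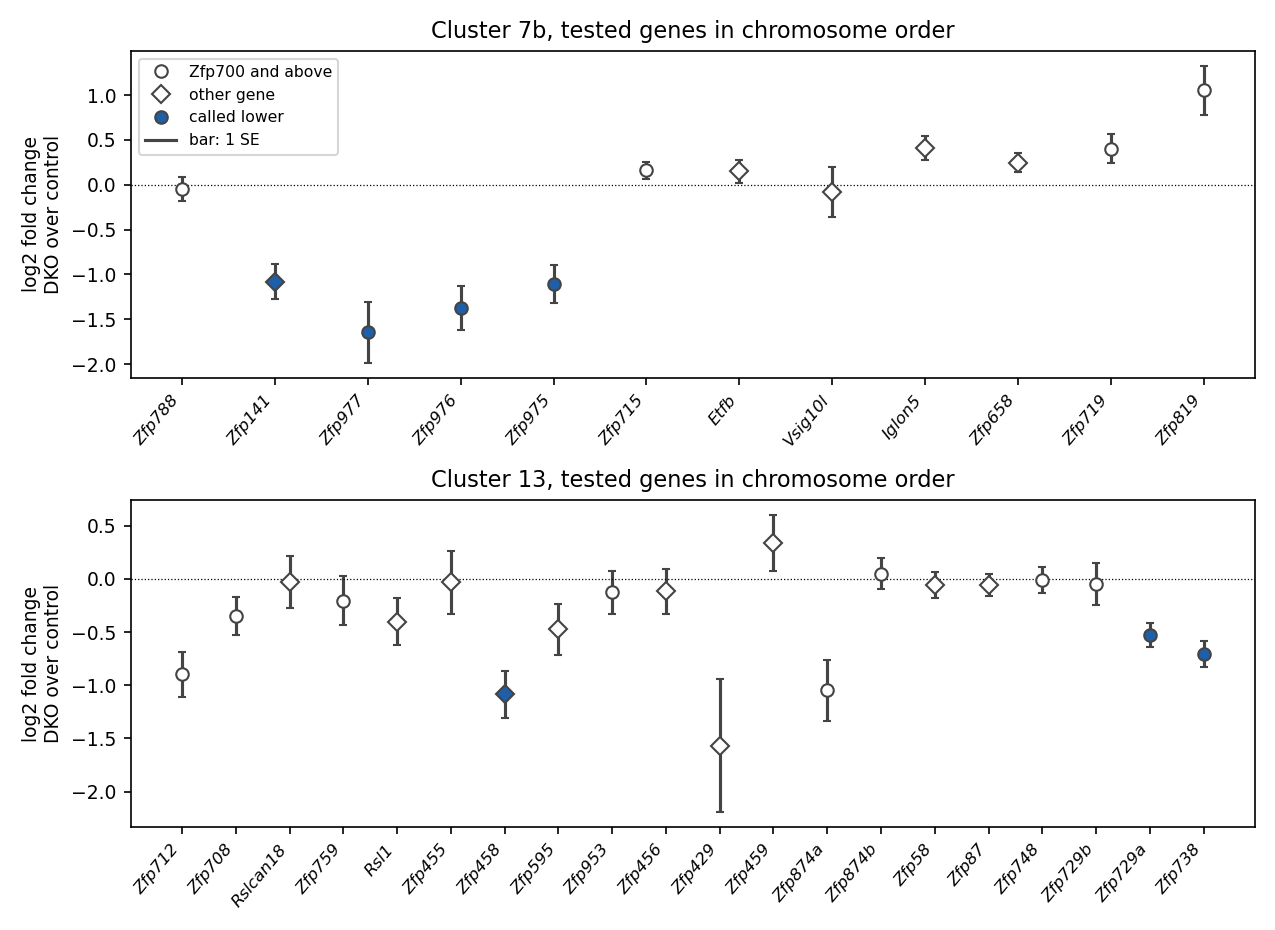
Log2 fold change (DKO over control, bars are SE) of tested genes in chromosome order in 2 clusters of zinc-finger genes, with neighbouring genes that are not among the 135 shown in a different marker. In cluster 7b a run of 4 genes (Zfp141, Zfp977, Zfp976 and Zfp975) lies between -1.65 and -1.08 with genes near or above 0 on both sides, and in cluster 13 the pair Zfp729a and Zfp738 stands at the end of the cluster.

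A pair of called neighbours also ends the chromosome 13 cluster. Zfp729a and Zfp738 are adjacent. Their promoters, at chr13:67637732-67638031 and chr13:67683463-67683762 on the minus strand of GRCm38.p6, were 77.1% identical with unmatched ends counted (249 of 323 positions). Each holds 5 CpGs. The transcript start used for Zfp729a, as for Zfp941, also lies inside the gene's range. The promoter of Zfp941 (chr7:140822129-140822428, minus strand, 5 CpGs), the gene that rose, is shown with them as the 1 called gene of opposite direction, again with CpGs in capitals.
Zfp729a promoter: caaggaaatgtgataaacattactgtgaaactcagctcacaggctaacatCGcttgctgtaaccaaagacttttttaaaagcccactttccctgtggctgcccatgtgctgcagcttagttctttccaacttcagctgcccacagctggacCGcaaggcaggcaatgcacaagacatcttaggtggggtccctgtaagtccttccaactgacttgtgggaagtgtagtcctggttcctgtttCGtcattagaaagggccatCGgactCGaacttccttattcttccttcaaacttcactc
Zfp738 promoter: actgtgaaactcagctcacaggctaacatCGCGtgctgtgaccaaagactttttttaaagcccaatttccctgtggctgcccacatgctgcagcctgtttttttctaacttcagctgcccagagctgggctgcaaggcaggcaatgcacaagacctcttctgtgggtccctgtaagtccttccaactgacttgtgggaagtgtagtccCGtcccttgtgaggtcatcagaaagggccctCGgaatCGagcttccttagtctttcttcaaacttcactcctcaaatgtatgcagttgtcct
Zfp941 promoter: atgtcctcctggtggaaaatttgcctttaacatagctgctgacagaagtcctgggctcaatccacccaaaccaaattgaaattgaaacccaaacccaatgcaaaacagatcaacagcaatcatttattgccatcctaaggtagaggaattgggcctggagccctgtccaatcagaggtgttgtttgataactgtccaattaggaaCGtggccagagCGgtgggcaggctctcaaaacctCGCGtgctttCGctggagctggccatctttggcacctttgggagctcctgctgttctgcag

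Zfp738 (chr13:67667441-67683512, 20 finger patterns) was at 16.4, 13.1 and 15.3 CPM in DKO and 26.1, 25.03 and 21.8 CPM in control libraries, a log2 fold change of -0.71 ± 0.12 with its SE (edgeR, adjusted p = 0.0234). Zfp729a (chr13:67612760-67637803, 27 finger patterns) was at 13.4, 12.2 and 13.5 CPM in DKO and 20.02, 19.6 and 16.8 CPM in control libraries, a log2 fold change of -0.53 ± 0.11 (edgeR, adjusted p = 0.0483). Both genes were separated between the groups, but the call of Zfp729a is close to the threshold and was lost with a replicate block (adjusted p = 0.0531), with scaling by library size alone (0.0851) and with a filter of 1 CPM (0.0611). Zfp729b, the like-named gene beside Zfp729a, had levels of 11.7, 13.2 and 17.3 CPM in DKO and 16.9, 11.2 and 15.5 CPM in control libraries, which overlap. Its log2 fold change was -0.05 ± 0.19 (edgeR, adjusted p = 0.916). Other genes share 39.9% of the words of Zfp729b and 14.8% of those of Zfp729a. Zfp941 (chr7:140807453-140822201, 9 finger patterns), the 1 gene called higher, was at 9.73, 10.3 and 9.90 CPM in DKO and 5.08, 3.28 and 5.71 CPM in control libraries, a log2 fold change of 1.08 ± 0.21 (edgeR, adjusted p = 0.0319). It lies outside the clusters.

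The smallest adjusted p among the lower genes were those of Zfp935, Zfp781 and Zfp934, and each shares part or all of its sequence with other genes. Zfp935 (chr13:62453016-62466852) was at 4.74, 5.14 and 7.87 CPM in DKO and 18.9, 17.1 and 15.6 CPM in control libraries, a log2 fold change of -1.54 ± 0.20 with its SE (edgeR, adjusted p = 0.00773). Zfp934 (chr13:62516795-62579321, 11 finger patterns), which overlaps Zfp935 in the GENCODE annotation, was at 3.61, 2.97 and 4.76 CPM against 9.44, 12.02 and 8.65 CPM, a log2 fold change of -1.40 ± 0.22 (adjusted p = 0.0150). Every one of the 50-base words of the Zfp935 transcripts recurs in another gene, 79.1% in a gene that overlaps it and 20.9% elsewhere, and 29.5% of those of Zfp934 recur elsewhere. The counts of Zfp935 can therefore not be tied to that gene alone. Zfp781 (chr10:81901911-81930512) was at 4.69, 4.59 and 8.16 CPM in DKO and 18.0, 19.3 and 15.04 CPM in control libraries, a log2 fold change of -1.58 ± 0.24 (edgeR, adjusted p = 0.0138). Of its words 96.3% recur in genes elsewhere, so its counts cannot be tied to this copy alone.

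The other called genes have mostly their own sequence. Zfp951 (chr5:104802246-104860157, 10 finger patterns) shares 1.43% of its words and was at 0.566, 0.662 and 0.603 CPM in DKO against 2.01, 2.65 and 1.16 CPM in control libraries, a log2 fold change of -1.65 ± 0.34 with its SE (edgeR, adjusted p = 0.0401). Zfp946 (chr17:22424182-22456689, 11 finger patterns) shares 1.75% of its words and was at 18.0, 16.9 and 22.9 CPM against 29.3, 30.3 and 28.1 CPM, a log2 fold change of -0.60 ± 0.13 (adjusted p = 0.0448). Neither gene's groups overlapped. The call of Zfp951 was lost with a filter of 1 CPM (adjusted p = 0.0501) and with limma-voom (0.0572), and that of Zfp946 with the same filter (0.0611) and with scaling by library size alone (0.0741). The start of Zfp946 lies 12.5 Mb from that of Ehmt2, whose chromosome holds 23 of the 135 genes. It was the 1 called gene among those 23. Over the 84 genes with less than 10% of their words shared, 80 were tested, 4 were lower (Zfp738, Zfp951, Zfp977 and Zfp946) and 1 was higher. Over the 50 with 10% or more, 42 were tested and 6 were lower.

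**Figure D3:**
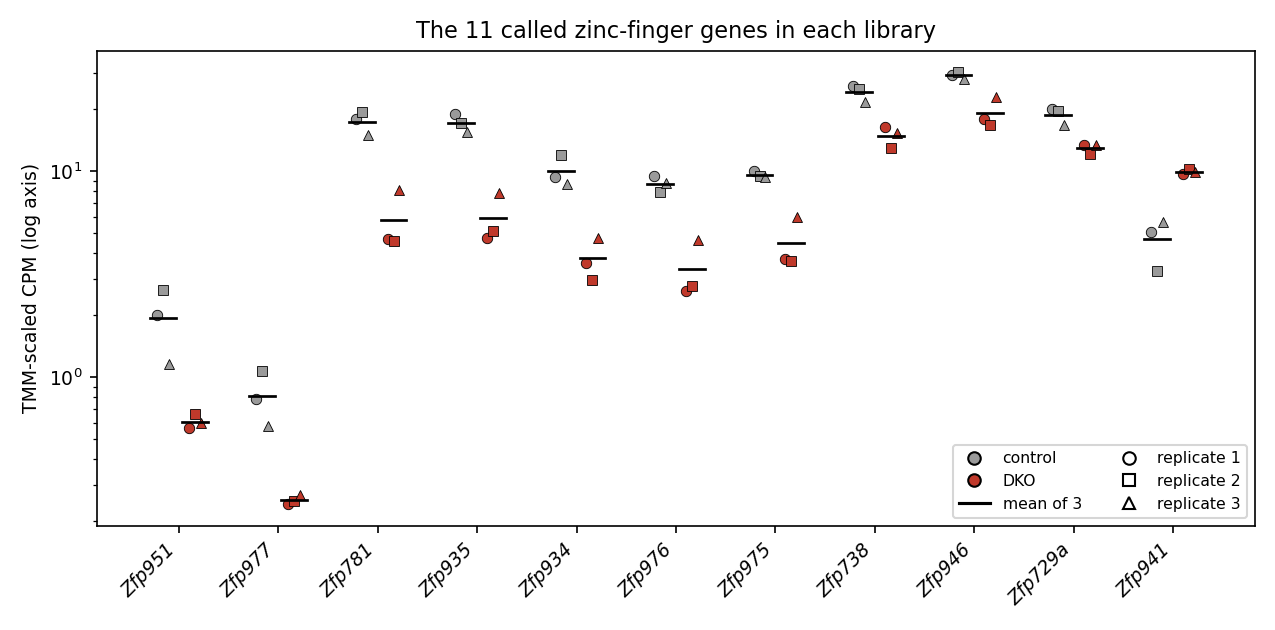
Level in each library (TMM-scaled CPM, log axis) of the 11 called zinc-finger genes, with DKO and control replicates as separate points. The groups do not overlap in any of the 11, and DKO replicate 3 is the highest DKO library in 8 of the 10 lower genes.

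DKO replicate 3 sat closest to the controls in most lower genes. It was the highest DKO library in 23 of the 27 lower genes whose groups did not overlap (85.2%), against 983 of 1852 such genes over the whole table (53.1%). Without it, 26 of the 123 genes were called lower and 3 higher, where 3.49% of all tested genes were called lower, and the median log2 fold change was -0.16. Without DKO replicate 1, 2 or control replicate 1, 2 or 3, the lower calls numbered 1, 3, 1, 1 and 5 and there was no higher call. Calls over the whole table fell in the same fits. Of all tested genes 0.142%, 0.405%, 0.239%, 0.216% and 0.385% were lower, against 0.818% with all 6 libraries. Higher were 110, 187, 120, 138 and 140 of all tested genes, against 319. Zfp935 was called without each library in turn (adjusted p = 0.00164 to 0.0457), and it was the only one of the 11 for which this held. Zfp781 and Zfp934 were called in 3 of these 6 fits each, Zfp738 and Zfp951 in 2 each, and the other 6 genes in 1 each, with adjusted p up to 0.193 (Zfp946).

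All 11 called genes carried a KRAB A-box pattern, which most tested genes also carried (95, against 26 without it). The pattern is a short run of residues, and no domain search was made. A KRAB A-box pattern was found near the start of the coding sequence in 105 of the 133 genes with a GENCODE coding sequence. Of 95 tested genes with the pattern, 10 were lower and 1 higher. Of 26 tested genes without it, edgeR called 0, with 3 higher and 2 lower at an unadjusted p below 0.05, while DESeq2 called 1 and limma-voom 0. The difference between these shares was not tested. By number of finger patterns, 2 of 16 tested genes with 0 to 5 were lower and 1 of 42 with 6 to 10. With 11 to 15 patterns 4 of 41 were lower, and with 16 or more 3 of 22. The lower genes of the first class were Zfp781 and Zfp935, with 0 patterns in short coding sequences of 243 and 150 residues. Their counts cannot be tied to these genes alone, so that class says little about finger number. The median finger count was 11 in genes called lower and 11 in tested genes not called.

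Promoters of the lower genes had few CpGs, from 5 to 12 in the 9 with a RefSeq window (median 8). The median was 10 in tested genes not called, a small difference that was not tested, and the higher gene, Zfp941, had 5. Among tested genes with 9 CpGs or fewer, 6 of 50 were lower and 1 higher, and among those with 10 to 19, 3 of 32 were lower. Of the 25 with 20 or more, edgeR called 0 (3 higher and 4 lower at an unadjusted p below 0.05), DESeq2 called 2 and limma-voom 0. Genes with many CpGs also had more counts, with a median control level of 17.2 CPM against 8.45 CPM in the lowest class. Motifs were searched on both strands in the same 300-base windows, and none of the 4 words contains another. The E-box CACGTG was in 14 of 118 windows (11.9%) against 8.13% of all 16833, the ETS word CCGGAAG in 19 (16.1%) against 12.2%, the ZFX core AGGCCT in 14 (11.9%) against 10.2%, and the E2F word TTTCCCGC in 1 (0.847%) against 1.497%. Among the 9 lower genes, AGGCCT was found in Zfp781, Zfp975 and Zfp977, CCGGAAG in Zfp951 and Zfp977, CACGTG in Zfp946, and TTTCCCGC in none. A match is a run of letters, and binding was not measured.

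Tandem clusters were taken as runs of at least 4 of the 135 genes on a chromosome with neighbouring starts at most 1 Mb apart. This gave 10 clusters with 81 genes, 73 of them tested, of which 6 were lower. EdgeR called 0 of the 73 higher, with 13 higher and 16 lower at an unadjusted p below 0.05, while DESeq2 called 4 higher and 9 lower and limma-voom 0 higher and 5 lower. Of the 50 tested genes outside clusters, 4 were lower and 1 was higher. The called share inside was 8.22%, and the lower genes came from 3 clusters, on chromosomes 7, 13 and 17. Shorter runs count as outside under the minimum of 4. Zfp781 lies near Zfp873 and Zfp938 on chromosome 10, and Zfp934 and Zfp935 lie near Zfp808 on chromosome 13. Zfp873, Zfp938 and Zfp808 were separated but not called. Their log2 fold changes were -0.90 ± 0.29, -0.88 ± 0.20 and -0.88 ± 0.21 (edgeR, adjusted p = 0.148, 0.0562 and 0.0713).

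**Figure D4:**
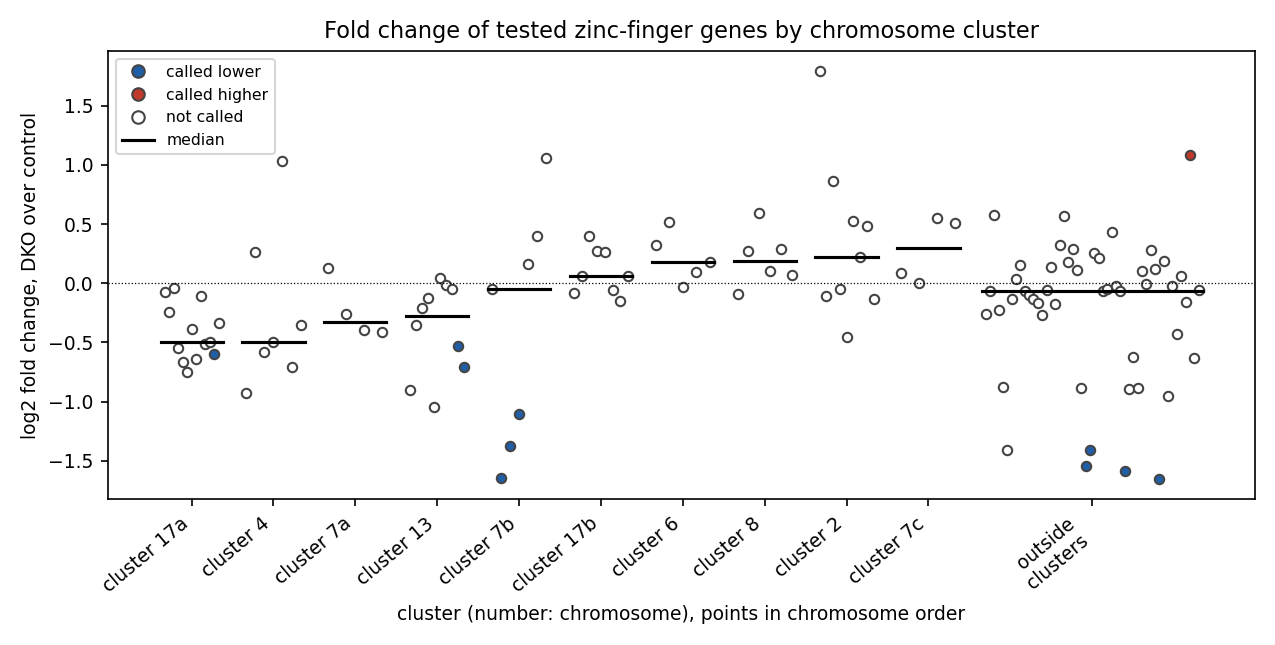
Log2 fold change (DKO over control) of each tested zinc-finger gene, by cluster in order of the cluster median (black line), with genes outside clusters on the right and called genes filled. Clusters are numbered by chromosome, and letters separate clusters on 1 chromosome. All 13 genes of cluster 17a lie below 0, while cluster 7b holds 3 genes below -1 beside genes at or above 0.

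Cluster 17a (chr17:21565816-22867309) was the most even. All 13 genes were tested and all 13 had a log2 fold change below 0, from -0.75 to -0.04 with a median of -0.50, and edgeR called Zfp946 alone, where DESeq2 called 2 lower. Its 13 genes summed to 133, 127 and 175 CPM in DKO replicates 1 to 3 and 203, 188 and 172 CPM in control replicates 1 to 3. DKO replicate 3 was above control replicate 3, so the groups overlapped (145 ± 26.5 against 188 ± 15.4 CPM, SD, n = 3 each). The gene with the most negative fold change, Zfp942, was at 12.2, 12.4 and 18.4 CPM in DKO and 25.6, 24.8 and 22.0 CPM in control libraries. Its log2 fold change of -0.75 ± 0.17 was not called (edgeR, adjusted p = 0.0572). With scaling by library size alone, 11 of the 13 genes were below 0 and the median was -0.42.

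Cluster 13 (chr13:67038594-67683512) was lower in sum. Its 10 genes took 88.3, 81.7 and 98.4 CPM in DKO and 122, 116 and 106 CPM in control libraries, and these did not overlap (89.5 ± 8.39 against 115 ± 7.67 CPM, SD, n = 3 each). The genes within it differed. Beside the called pair, Zfp712 was at 3.18, 2.58 and 3.44 CPM against 6.15, 6.46 and 4.55 CPM, a log2 fold change of -0.90 ± 0.21 (edgeR, adjusted p = 0.0620). Zfp874a was at 6.39, 3.65 and 3.24 CPM against 7.98, 11.8 and 7.76 CPM, a log2 fold change of -1.05 ± 0.29 (adjusted p = 0.0999). Both genes were separated between groups without reaching the threshold, and DESeq2 called both. Zfp874b and Zfp748, which lie between Zfp874a and the called pair, had log2 fold changes of 0.05 ± 0.15 and -0.01 ± 0.13 and overlapping groups. Zfp708, which binds retroelements in mouse embryonic stem cells, was at 5.71, 5.23 and 7.46 CPM against 7.60, 8.75 and 7.14 CPM, overlapping groups with a log2 fold change of -0.35 ± 0.18 (adjusted p = 0.306), though 88.6% of its words fall in overlapping annotated genes. Among the 10 tested neighbours in the cluster that are not among the 135, 9 had a log2 fold change below 0, and the median was -0.09. Rslcan18, Zfp455, Zfp58 and Zfp87 lay at -0.03, -0.03, -0.06 and -0.06, so those signs may depend on the scaling. Zfp458 was called lower, at 1.51, 1.48 and 1.92 CPM against 4.07, 3.23 and 3.11 CPM (log2 fold change -1.08 ± 0.22, edgeR, adjusted p = 0.0417).

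Cluster 4 (chr4:145510759-147849126) holds closely related genes, and 6 of its 13 genes had too few counts to test. The sum over the cluster was 39.96, 41.4 and 65.1 CPM in DKO and 71.8, 69.85 and 71.2 CPM in control libraries. These did not overlap (48.8 ± 14.1 against 71.0 ± 0.995 CPM, SD, n = 3 each), but the separation depends on the scaling. The TMM factors were 1.03 for DKO replicate 3 and 0.952 for control replicate 2. With scaling by library size alone, DKO replicate 3 would lie above control replicate 2. DKO replicate 3 was far closer to the controls than the other DKO libraries. Zfp992 had the largest difference in level in the cluster, at 9.27, 8.68 and 15.9 CPM in DKO and 21.3, 20.3 and 22.9 CPM in control libraries, a log2 fold change of -0.93 ± 0.23 that was not called (edgeR, adjusted p = 0.0731). The call of Zfp992 depended on the fit, since it passed with a replicate block (adjusted p = 0.00755), with DESeq2 (0.00269) and without DKO replicate 3 (0.00238). Of its words 43.0% recur elsewhere. Zfp991 and Zfp984 were also separated, with log2 fold changes of -0.58 ± 0.21 and -0.70 ± 0.22 (adjusted p = 0.167 and 0.135). Of their words 82.2% and 50.2% recur elsewhere. Zfp979 went the other way, at 2.96, 2.10 and 5.77 CPM in DKO and 1.83, 1.79 and 1.67 CPM in control libraries, with a log2 fold change of 1.03 ± 0.36 (adjusted p = 0.165) that was 0.51 without DKO replicate 3. EdgeR called 0 genes of the cluster, with 1 higher and 3 lower at an unadjusted p below 0.05, while DESeq2 called 1 lower and limma-voom 0.

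**Figure D5:**
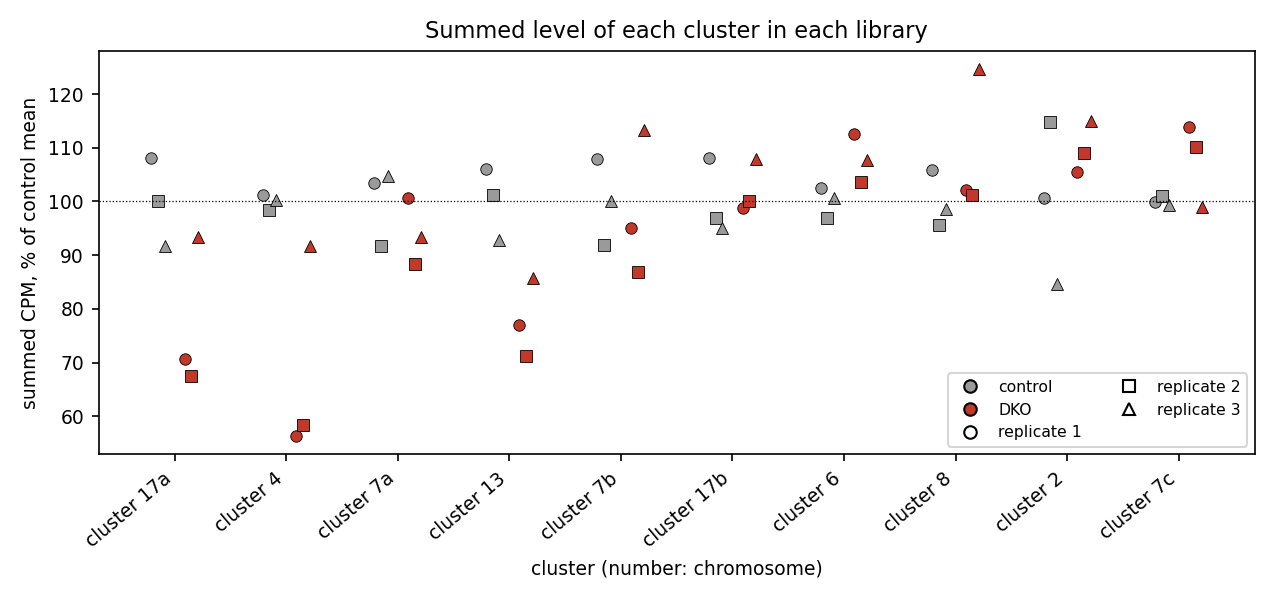
Summed level of each of the 10 clusters in each library, as a percentage of the mean of its 3 control libraries (dotted line), with replicates as different markers. DKO replicates 1 and 2 lie below all controls in clusters 4, 13 and 17a, and DKO replicate 3 lies between them and the controls or among the controls.

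The other clusters showed no call by edgeR. Cluster 6 (chr6:47815536-48621548) was higher in sum, at 177, 163 and 170 CPM in DKO and 162, 153 and 159 CPM in control libraries, and the smallest p in it was that of Zfp956, at 23.4, 22.6 and 18.4 CPM against 17.2, 13.4 and 14.4 CPM (log2 fold change 0.52 ± 0.14, edgeR, adjusted p = 0.0894). Zfp746 (PARIS), a repressor of the mitochondrial regulator Ppargc1a and a substrate of parkin, lies in the same cluster and had a log2 fold change of 0.10 ± 0.08. In cluster 7c (chr7:127242996-127406835), Zfp747 was at 17.4, 15.3 and 15.3 CPM in DKO and 10.1, 10.8 and 11.9 CPM in control libraries. Its log2 fold change of 0.55 ± 0.12 just missed the threshold (adjusted p = 0.0503), and it was called with scaling by library size alone, with a filter of 1 CPM, with DESeq2 and without DKO replicate 3. Of the words of Zfp747, 34.4% recur elsewhere. In cluster 7a (chr7:6131489-7209998), Zfp772 was at 8.78, 8.86 and 8.90 CPM against 12.1, 12.8 and 10.5 CPM, separated but not called (log2 fold change -0.41 ± 0.13, adjusted p = 0.126). Cluster 2 (chr2:174598682-178078425) had the weakly expressed Zfp831, at 0.323, 0.868 and 0.291 CPM against 0.201, 0.0897 and 0.103 CPM. Its log2 fold change of 1.79 ± 0.59 was not called (adjusted p = 0.147) and was 1.10 without DKO replicate 2. Zfp965 in that cluster and Zfp964 in cluster 8 (chr8:69209018-69774911) had log2 fold changes of 0.86 ± 0.30 and 0.60 ± 0.22 (adjusted p = 0.162 and 0.176), both with separated groups. Zfp965 had 142 counts over the 6 libraries together, and 96.3% of its words recur elsewhere. At an unadjusted p below 0.05, edgeR had 1 gene higher in cluster 6, 2 higher in each of clusters 2, 7c and 8, 3 higher in cluster 17b and 1 lower in cluster 7a. DESeq2 called 1 gene higher in each of clusters 6, 7c and 17b and 0 in the others, and limma-voom called 0 in all of them.

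Across the 10 clusters, 64 tested genes lie between the first and last zinc-finger gene without being among the 135. Of these, 2 were higher and 2 lower, with a median log2 fold change of 0.05. The lower pair are zinc-finger genes, Zfp141 and Zfp458, described above. The higher pair are Cyp4f13 and Gm14296. Cyp4f13, a cytochrome P450 gene in cluster 17b, was at 3.56, 4.75 and 3.69 CPM in DKO and 1.86, 1.57 and 1.23 CPM in control libraries (log2 fold change 1.36 ± 0.24, edgeR, adjusted p = 0.0240). Gm14296, in cluster 2, was at 19.3, 21.9 and 22.7 CPM against 11.9, 14.2 and 10.1 CPM (0.82 ± 0.14, adjusted p = 0.0233). Neither lies beside a called gene of the 135.

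None of the genes with a described role outside repeat silencing was called by edgeR. Zfp706, a short protein that favours exit from the naive state in embryonic stem cells, had the highest control level per coding length, 643 CPM per kb. It was at 131, 126 and 132 CPM in DKO and 133, 149 and 158 CPM in control libraries, barely separated, with a log2 fold change of -0.18 ± 0.08 (edgeR, adjusted p = 0.248). Next by level per length came Zfp740, Zfp871, Zfp703 and Zfp704 with 366, 97.4, 93.4 and 65.8 CPM per kb in control and 398, 92.3, 89.0 and 56.3 CPM per kb in DKO. Their log2 fold changes were 0.12 ± 0.07, -0.08 ± 0.08, -0.07 ± 0.07 and -0.23 ± 0.11, all with overlapping groups. Zfp703 is a corepressor whose human counterpart is amplified in breast cancer, and none of the 5 genes was called. Zfp711, an X-linked activator related to Zfx, was at 19.9, 19.3 and 28.3 CPM in DKO and 32.8, 28.8 and 29.0 CPM in control libraries, a log2 fold change of -0.42 ± 0.15 (adjusted p = 0.172). It was called without DKO replicate 3 (adjusted p = 0.0154). Zfp804a, whose human counterpart is linked to schizophrenia risk, was at 1.86, 1.58 and 2.03 CPM against 3.24, 2.33 and 2.80 CPM, separated but not called (log2 fold change -0.62 ± 0.23, adjusted p = 0.172). Zfp827 and Zfp750, the latter a regulator of epidermal differentiation, had log2 fold changes of -0.02 ± 0.10 and -0.16 ± 0.69, and Zfp750 was at 0.434 CPM or less in all libraries.

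Zfp809, which recognises the proline tRNA primer site of retroviruses and recruits Trim28, was at 4.88, 6.60 and 6.24 CPM in DKO and 6.78, 5.56 and 4.89 CPM in control libraries, overlapping groups with a log2 fold change of 0.04 ± 0.19 (edgeR, adjusted p = 0.936). Zfp932, which binds endogenous retroviruses in mouse embryonic stem cells, was at 7.06, 6.19 and 11.6 CPM in DKO and 14.9, 17.0 and 16.3 CPM in control libraries. The groups of Zfp932 did not overlap, and its log2 fold change was -0.95 ± 0.23 (adjusted p = 0.0684). It was called with a replicate block (adjusted p = 0.0167), with DESeq2 (0.00287) and without DKO replicate 3 (0.00403), and 37.0% of its words recur elsewhere. Zfp996, the remaining gene among the largest falls not called, was at 0.243, 0.137 and 0.469 CPM against 0.626, 0.404 and 1.23 CPM, with overlapping groups (log2 fold change -1.40 ± 0.54, adjusted p = 0.194).

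The 12 untested genes were close to the limit of detection. Zfp735 had no count in any library, where a count of 0 allows up to 0.135 CPM in the shallowest library (3 counts, counting error only), and the others had 5 to 42 counts over the 6 libraries together. The highest, Zfp972, had 17, 11 and 6 counts in DKO and 4, 4 and 0 in control libraries. Zfp957 had 3, 1 and 1 counts in DKO and 0 in each control library, too few to compare.

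Zinc-finger genes numbered below 700 are the set most alike. Of 257 such genes, 247 were tested, 4 were lower (1.62%) and the median log2 fold change was 0.01. EdgeR called 0 higher, with 31 higher and 28 lower at an unadjusted p below 0.05, while DESeq2 called 11 higher and 8 lower and limma-voom 0 higher and 4 lower. Beside Zfp141 and Zfp458, the lower genes were Zfp110, at 24.4, 24.4 and 25.1 CPM in DKO and 38.4, 38.1 and 38.7 CPM in control libraries (log2 fold change -0.64 ± 0.07, adjusted p = 0.00466), and Zfp369 (-0.86 ± 0.13, adjusted p = 0.0131). The difference between the shares of the number ranges, 8.13% and 1.62% lower, was not tested, and genes numbered below 700 had a higher median control level, 28.9 against 11.7 CPM.

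The machinery through which KRAB zinc-finger proteins act was measured over 31 genes, all tested. EdgeR called 0 of them, with 0 higher and 7 lower at an unadjusted p below 0.05, while DESeq2 called 6 lower and limma-voom 0. The median log2 fold change was -0.14 and 26 of 31 were below 0, or 20 of 31 with scaling by library size alone. DKO and control libraries did not overlap in 10 of the 31 that were lower and in 0 that were higher. Over all tested genes these shares were 12.7% and 14.5%, and the difference was not tested. Trim28, the corepressor that the KRAB domain binds, was at 934, 860 and 886 CPM in DKO and 809, 968 and 1006 CPM in control libraries, overlapping groups with a log2 fold change of -0.05 ± 0.10 (edgeR, adjusted p = 0.802). Chd4, the remodelling ATPase of NuRD, was at 898, 896 and 866 CPM against 1038, 1137 and 1158 CPM, separated but not called (log2 fold change -0.33 ± 0.08, adjusted p = 0.0713).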

How the data were processed

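Polyadenylated RNA of sorted arch neural crest was measured in 3 DKO and 3 control libraries. The authors deposited unnormalized counts for each gene symbol, and the WT columns were matched to the libraries that the labels call control. The submitters' processing notes list build mm10 and the tools Picard, STAR 2.7.10a and Trim Galore. How reads were counted, on which strand and with which annotation is not given in the sources used here. Reads on overlapping genes or near-identical copies may have been split, shared or dropped.

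Counts were tested with edgeR 4.0.16 in R 4.3.3 (TMM scaling, filterByExpr with a minimum count of 10 and total of 15, robust quasi-likelihood test, 2-sided, group as the only term), with Benjamini-Hochberg adjustment over all 14555 tested genes and a call at an adjusted p below 0.05. Levels are TMM-scaled CPM, and each SE was obtained by dividing the log2 fold change by the root of F. Nothing in the labels says that the replicates came from separate litters, so p-values measure only the spread between these libraries. On counts simulated for DKO against control (14555 genes), 76 of 100 genes changed 2-fold and 98 of 100 changed 4-fold were called, with 6.45% of 186 calls false; the changed genes had at least 1 CPM. DESeq2 1.42.0 and limma 3.58.1 (voom) were run as alternatives, besides a replicate block, other scalings and filters, and leaving out each library.

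All 135 genes matched the RefSeq gene table (GRCm38.p6), which gave positions, counted from 1, and 118 had a window in the RefSeq promoter table. Finger and KRAB patterns were counted in translated GENCODE M21 coding sequences of the same assembly, used in place of a protein table, for 133 genes. The KRAB pattern was sought in the first 150 residues. Shared sequence is the share of 50-base words of a gene's transcripts that occur in another gene's.

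The genes and lists were chosen with earlier results of these data known. The genes named are all called ones, the 5 largest positive and 5 largest negative fold changes among the others, the 5 highest per coding length, those at least 2-fold and separated, the smallest p in a cluster with none named, up to 4 called neighbours (or 2 by level in the corepressor list), and 9 genes with known roles. Other genes of the clusters, Zfp808, Zfp873 and Zfp938, and those numbered below 700, were named after their values were seen.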

Additional observations from a re-analysis of the deposited data

How the results depend on the processing

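With 3 libraries per group, whether the replicate numbers pair the libraries could not be settled. Deviations from the group means correlated at 0.05, -0.03 and 0.36 for numbers 1 to 3, and at 0.45 between control 1 and DKO 2. Not every library therefore fits best with its own number, which does not exclude a pairing. With the replicate block, 15 genes were lower and 1 higher, and 196 of all tested genes were lower against 119 without it. Lower calls of the 135 numbered 6 with a filter of 1 CPM, 17 with DESeq2 and 1 to 26 when single libraries were left out. Higher calls numbered 2 with library size alone, 2 with the 1 CPM filter, 5 with DESeq2 and 0 to 3 without single libraries. Over all tested genes, DESeq2 called 624 higher and 482 lower, and the 1 CPM filter gave 249 higher and 81 lower. Leaving out single libraries gave 110 to 597 higher and 21 to 509 lower. Higher genes made up 72.8% of all calls, 83.9% with library size alone and 56.4% with DESeq2. The median log2 fold change of the tested genes was -0.16 to 0.0094 without single libraries. Summed levels moved by less than the spread between replicates under the scalings and left-out libraries tried.

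Signs turned for 5 uncalled genes near 0: Zfp750 (0.28, 0.15 and 0.05 without DKO 1, control 1 and control 2, within -0.72 to 0.28), Zfp871 (4.45e-05 with library size alone), Zfp703 (0.0102 with library size alone), Zfp827 (0.0528 with library size alone, -0.10 to 0.0920 without single libraries) and Zfp809 (-0.0683 to 0.19 without single libraries, -0.0045 without DKO 3). Over 38 named genes and their alternatives, 408 values kept direction and side of the threshold, 53 lost a call, 17 gained one and 11 turned. Some genes have under 10 counts in a library, such as Zfp977, and the depth does not let their fold be read closely. The cause of these changes was not tested.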
